A study of Mus musculus with 9 samples.

Results

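Rab GTPases are small proteins that mark the membranes of the cell and steer vesicles between them. Expression of their genes was compared in 9 RNA-seq libraries of mouse bone marrow cells. Genes were taken by name, as the letters Rab followed by a number and at most a letter and a digit, which gave 58 of 55274 gene identifiers. Levels are given as FPKM, the number of sequenced fragments divided by transcript length and by the depth of the library. An FPKM of 1 or more in 3 or more libraries was required for testing, which 45 Rab genes met, among 13493 genes in all. A total of 39 Rab genes reached that level in all 9 libraries.

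Bone marrow was taken from female C57BL/6J mice aged 6 to 8 weeks, 4 days after 150 mg/kg 5-fluorouracil, and was stimulated for 48 h with human IL-6, murine IL-3 and murine SCF. Cells were then transduced with retrovirus that carried NRASG12D with a blue fluorescent marker, NUP98-NSD1 with a green fluorescent marker, or both, and were sorted on the marker and expanded in culture. NRASG12D is a mutant RAS protein found in leukaemia, and NUP98-NSD1 is a fusion of a nuclear pore protein with a histone methyltransferase. Each group had 3 libraries, called NRASG12D, NUP98-NSD1 and NUP98-NSD1+NRASG12D, the last also called double-transduced here. Both transgenes were driven by the MSCV retroviral promoter, and no group of untransduced or empty-vector cells was analysed here, so every comparison is between transduced cultures. No source used here says that the 3 libraries of a group came from separate mice, so the p-values measure the spread between these cultures, which may be technical.

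A Rab protein cycles between a GTP-bound form, which sits on a membrane and recruits effectors, and a GDP-bound form, which is taken off it. Guanine nucleotide exchange factors switch it on, GTPase-activating proteins switch it off, and a prenyl tail added with the help of escort proteins anchors it. In mast cells and neutrophils, Rab27a and Rab27b bring secretory granules to the plasma membrane through effectors of the synaptotagmin-like family and Munc13-4. Rab32 and Rab38 serve the formation of lysosome-related organelles, a class that includes melanosomes and platelet dense granules.

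The libraries held about 22500000 to 35400000 fragments, as estimated from the step between low values. Reads of endogenous Nras and of the transgene were not told apart. Nras had 394 ± 74.0 FPKM (SD, n = 3) in the NRASG12D libraries and 49.7 ± 1.84 in the NUP98-NSD1 libraries. It had 403 ± 259 in the double-transduced libraries, so the lowest was the group labelled without the NRAS transgene. Means of Nup98 were 10.35, 18.61 and 15.87 FPKM in the same order, and those of Nsd1 13.02, 14.23 and 13.32. With limma as below, Nup98 was higher than in NRASG12D in NUP98-NSD1 (adjusted p = 0.00141). It was not called in the double-transduced group (adjusted p = 0.0818). Nsd1 was called in neither (adjusted p of 0.623 and 0.969). Nsd1 thus gave no check of the NUP98-NSD1 label, and Nup98 a partial one. Sums of mast cell, neutrophil and monocyte marker genes separated the 3 groups. The 14 mast cell genes summed to 36794, 38996 and 38103 FPKM in the NRASG12D libraries, although Cpa3 was listed at 0 in all 3 of them. In the NUP98-NSD1 libraries the same sum was 29443, 29549 and 35744, and in the double-transduced libraries 1037, 4767 and 791. Without Cpa3 the sums were 16029.9, 16985 and 21365 in NUP98-NSD1 and 684, 2946 and 511 in NUP98-NSD1+NRASG12D. The 10 neutrophil and promyelocyte genes summed to 26.6 to 34.7 FPKM in NRASG12D, with Camp and Ltf at 0 in all 3 libraries, to 6205, 5882 and 1741 in NUP98-NSD1 and to 14935, 8955 and 19582 in NUP98-NSD1+NRASG12D. The 8 monocyte and macrophage genes summed to 44.1 to 60.1, to 496 to 936 and to 1821 to 4694 FPKM, in the same order. The 4 megakaryocyte genes summed to 479 to 563, 242 to 301 and 81.03 to 1241 FPKM, and the 4 basophil genes to 406 to 447, 859 to 1603 and 29.4 to 487 FPKM. Single genes carried these sums, and their lists did not move together. In NRASG12D, Itga2b had 479 to 558 FPKM and Cd200r3 352 to 429, and both were lower in the other groups. Pf4 and Ppbp were higher in every library with NUP98-NSD1 than in NRASG12D, and Pf4 had 1157 FPKM in double-transduced replicate 2. Mcpt8 and Prss34 were higher in NUP98-NSD1 than in NRASG12D. These were bulk libraries, so a lower value could mean fewer cells of a type or less RNA per cell, which cannot be told apart.

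The 58 genes summed to between 2316 and 2664 FPKM in the 9 libraries, and the ranges of the groups overlapped. As a percent of the summed FPKM of all genes the NRASG12D libraries held 0.455% to 0.471%, the libraries with NUP98-NSD1 alone 0.404% to 0.419% and the double-transduced libraries 0.343% to 0.404%. All 3 NRASG12D libraries were above the other 6, while the other groups met at 0.404%. The 11 genes of regulated secretion and granules made up 26.5, 25.98 and 25.2% of the summed Rab FPKM in the NRASG12D libraries, 21.3, 21.1 and 21.9% in the NUP98-NSD1 libraries and 12.9, 10.7 and 10.3% in the double-transduced libraries. These genes are Rab3a to Rab3d, Rab26, Rab27a, Rab27b, Rab32, Rab37, Rab38 and Rab44. In NRASG12D the most abundant members were Rab1b, of traffic between endoplasmic reticulum and Golgi, with a mean of 199.8 FPKM, then Rab27b with 194, Rab37 with 186 and Rab7 with 167. In NUP98-NSD1 they were Rab1b with 201, Rab7 with 185 and Rab14 with 172 FPKM. In NUP98-NSD1+NRASG12D they were Rab7 with 243, Rab14 with 206 and Rab11a with 204 FPKM, and Rab27b and Rab37 had left the top of the list with means of 7.77 and 10.7 FPKM.

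Each pair of groups was compared on log2(FPKM + 1) with limma, and p-values were adjusted over the 13493 tested genes after Benjamini and Hochberg, with a threshold of 0.05. Fold changes of low genes are understated on this scale. Between NUP98-NSD1 and NRASG12D, 20 of the 45 tested Rab genes passed the threshold, 11 higher and 9 lower in NUP98-NSD1, while 52.1% of all tested genes did, 42.2% higher and 9.98% lower. Between NUP98-NSD1+NRASG12D and NRASG12D, 19 Rab genes passed, 10 higher and 9 lower, against 38.3% of all tested genes, 24.2% higher and 14.1% lower. Between NUP98-NSD1+NRASG12D and NUP98-NSD1, 7 Rab genes passed, 1 higher and 6 lower, against 8.61% of all tested genes, 2.30% higher and 6.31% lower. With 1 estimate of spread over all 9 libraries the first count was 6, and Rab2a, Rab6a, Rab8a, Rab8b, Rab13, Rab19, Rab20, Rab27b, Rab32, Rab33b, Rab37, Rab38, Rab40b and Rab40c were no longer called, at adjusted p of 0.0584 to 0.409 and the same log2 differences. In that fit Sytl2 and Lrrk2, described below among the effectors, were not called in this comparison either (adjusted p of 0.0932 and 0.192). The count of Rab genes was 13 without NUP98-NSD1 replicate 2, and the last count was 1 without NUP98-NSD1 replicate 1, 2 or 3 and 3 without double-transduced replicate 3. Counted by libraries that did not overlap, 15 Rab genes were higher and 11 lower in the first comparison, against 50.7% and 13.5% of all tested genes. In the second these counts were 15 and 14, against 38.7% and 19.9%, and in the third 10 and 13, against 11.6% and 19.8%. The lower genes of both comparisons with NRASG12D include Rab36, and the higher ones Rab7b, which passed the filter on low values through the groups where they were high. These 3 comparisons share libraries and are not independent of each other.

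The direction of the smaller differences depended on how libraries were scaled. As deposited, the median of all tested genes was 0.27 higher in NUP98-NSD1 than in NRASG12D, 0.23 higher in NUP98-NSD1+NRASG12D than in NRASG12D and 0.06 lower in NUP98-NSD1+NRASG12D than in NUP98-NSD1 on the log2 scale, and the median of the 45 Rab genes was 0.08, 0.07 and 0.06 higher. After median-ratio scaling, the split of the calls into higher and lower Rab genes moved from 11 and 9 to 7 and 17 in the first comparison, where 26.3% of all tested genes were then called higher and 19.3% lower. It moved from 10 and 9 to 9 and 13 in the second, against 20.3% and 18.3% of all tested genes, and from 1 and 6 to 2 and 6 in the third, against 2.18% and 4.88%. After quantile normalization the splits were 5 and 20 (19.4% and 25.6% of all tested genes), 7 and 16 (15.9% and 22.7%), and 2 and 6 (3.02% and 5.28%). Where a scaling changed the call of a gene described below, its difference under that scaling or from the median of all tested genes is given as well.

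**Figure D1:**
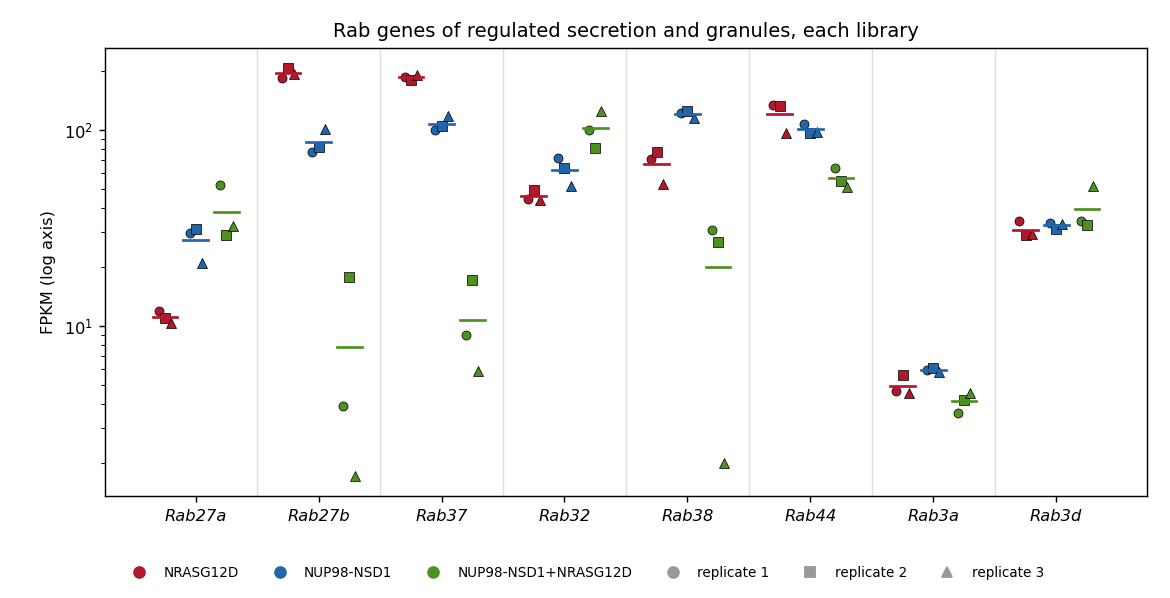
FPKM (log axis) of 8 Rab genes of regulated secretion and granules in each of the 9 libraries; colours mark the groups, symbols the replicates and bars the group means. Rab27b and Rab37 fall from above 180 FPKM in every NRASG12D library to below 20 in every double-transduced library, Rab27a runs the other way, and 1 double-transduced library holds Rab38 at 1.99.

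Among the Rab genes of granules, the pair Rab27a and Rab27b moved in opposite directions. Rab27b, on which granule exocytosis in mast cells depends, had 183, 206 and 193 FPKM in the NRASG12D libraries, 77.2, 81.97 and 101 in the NUP98-NSD1 libraries and 3.88, 17.7 and 1.71 in the double-transduced libraries. All 3 groups were separate, and the double-transduced libraries differed most among themselves, replicate 2 being the highest and replicate 3 the lowest. Rab27b fell by 1.16 ± 0.12 (SE) on the log2 scale in NUP98-NSD1 compared with NRASG12D (adjusted p = 0.000725), and the mean was 2.24-fold lower, a call lost when all 9 libraries shared 1 fit (adjusted p = 0.148). In NUP98-NSD1+NRASG12D it was 25.01-fold lower than in NRASG12D, with a log2 difference of -4.96 ± 0.64 (SE, adjusted p = 0.00137), and 11.2-fold lower than in NUP98-NSD1, with a log2 difference of -3.79 ± 0.65 (SE, adjusted p = 0.0191). This last call was lost when any single NUP98-NSD1 library was left out, with log2 differences of -3.87 to -3.68 and adjusted p of 0.0602 to 0.0857.

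Rab27a (chr9:73044854-73097629, plus strand, GRCm38), which serves granule docking in neutrophils, cytotoxic T cells and melanocytes, had 11.9, 10.9 and 10.3 FPKM in the NRASG12D libraries, 29.9, 31.3 and 20.9 in the NUP98-NSD1 libraries and 52.1, 29.2 and 32.4 in the double-transduced libraries. Every NRASG12D library was below every library of both other groups, which overlapped. Rab27a rose 2.48-fold in NUP98-NSD1 compared with NRASG12D, with a log2 difference of 1.22 ± 0.16 (SE, adjusted p = 0.00159), and 3.44-fold in NUP98-NSD1+NRASG12D, with a log2 difference of 1.65 ± 0.23 (SE, adjusted p = 0.00195). The double-transduced libraries differed from NUP98-NSD1 by a log2 value of 0.43 ± 0.27 (SE, adjusted p = 0.397). The ratio of Rab27b to Rab27a was 15.4, 18.9 and 18.8 in the NRASG12D libraries, 2.58, 2.62 and 4.84 in the NUP98-NSD1 libraries and 0.0745, 0.607 and 0.0528 in the double-transduced libraries, so that Rab27a was the more abundant of the pair in the last group alone. The sum of both genes was also lower there, 55.96, 46.9 and 34.1 FPKM against 195, 217 and 204 in NRASG12D. Coding sequences of the pair shared 69.2% of aligned bases, and 3.59% of the 50-base stretches of Rab27a and 0.244% of those of Rab27b also occurred in transcripts of other genes.

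Rab37 (chr11:115091431-115162236, plus strand), a Rab of mast cell secretory granules, had 186, 180.5 and 190.3 FPKM in the NRASG12D libraries, 100.02, 104 and 117 in the NUP98-NSD1 libraries and 9.02, 17.1 and 5.88 in the double-transduced libraries. Compared with NRASG12D it fell in NUP98-NSD1, with a log2 difference of -0.79 ± 0.09 (SE, adjusted p = 0.000929) that did not pass when all 9 libraries shared 1 fit (adjusted p = 0.0764), and in NUP98-NSD1+NRASG12D it was 17.4-fold lower than in NRASG12D, with a log2 difference of -4.12 ± 0.33 (SE, adjusted p = 0.000231). Compared with NUP98-NSD1 it was 10.1-fold lower, with a log2 difference of -3.33 ± 0.34 (SE, adjusted p = 0.00591). Among the 7 Rab genes called in that comparison, Rab37 alone passed the threshold under all 13 alternatives, 6 of which left out a library. Rab37 overlaps Cd300lf on the opposite strand, but none of its 50-base stretches occurred in transcripts of other genes.

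The fall of Rab27b and Rab37 moved with mast cell markers. Of the 13 mast cell genes tested, 10 were lower and 2 higher in NUP98-NSD1+NRASG12D than in NRASG12D, and 11 were lower and 0 higher than in NUP98-NSD1. In NUP98-NSD1, 6 were lower and 4 higher than in NRASG12D. Of all tested genes, 14.1% were lower and 24.2% higher in the first of these comparisons, 6.31% and 2.30% in the second and 9.98% and 42.2% in the third. Cpa3, listed at 0 in all NRASG12D libraries, is among the higher genes of both comparisons with NRASG12D. It passed the filter only through the other groups. No check was made whether this 0 was a measurement or a value that could not be estimated, so these Cpa3 calls are uncertain. Within the double-transduced group the libraries ranked alike on Rab27b, Rab37 and the mast cell sum, with replicate 2 the highest and replicate 3 the lowest. The part of the mast cell markers in these results was not tested.

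**Figure D2:**
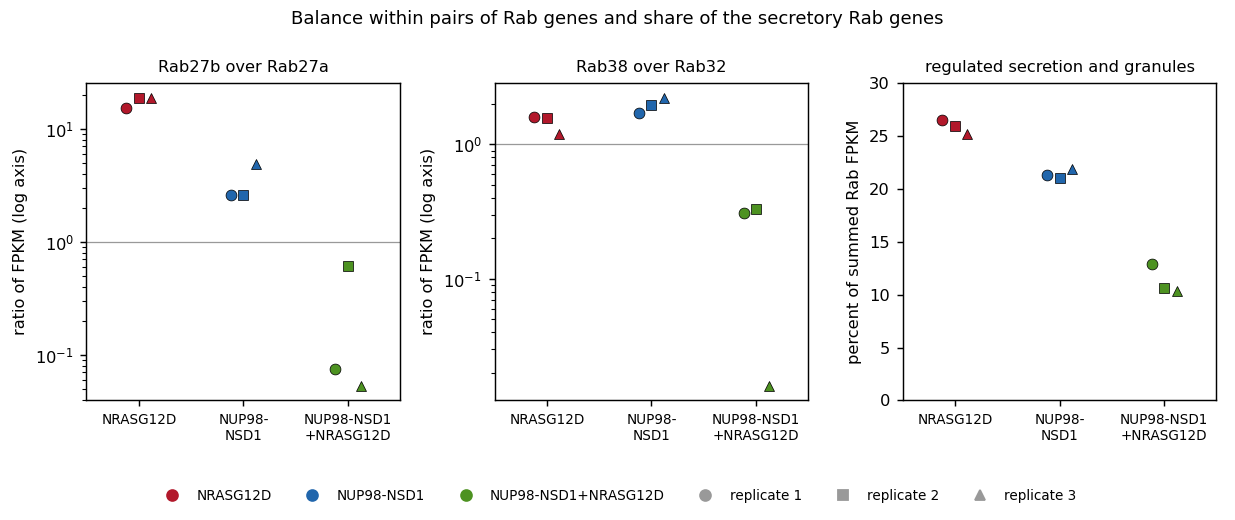
Ratio of FPKM of Rab27b to Rab27a and of Rab38 to Rab32 (log axes, grey line at a ratio of 1), and the percent of summed Rab FPKM held by the 11 genes of regulated secretion and granules, in each library. Both ratios are above 1 in all libraries of NRASG12D and NUP98-NSD1 and below 1 in all double-transduced libraries, and the share falls from 25.2% or more in NRASG12D to 12.9% or less in the double-transduced group.

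Rab32 and Rab38, which are 72.1% identical in coding sequence, also parted. Rab32 (chr10:10545002-10558265, minus strand) had 44.5, 49.4 and 43.99 FPKM in the NRASG12D libraries, 71.5, 63.6 and 51.7 in the NUP98-NSD1 libraries and 100.1, 80.3 and 124 in the double-transduced libraries. Its groups stood in stepwise order without overlap. It was 2.21-fold higher in NUP98-NSD1+NRASG12D than in NRASG12D, with a log2 difference of 1.11 ± 0.19 (SE, adjusted p = 0.00434), and the difference from NUP98-NSD1 was 0.69 ± 0.21 (SE, adjusted p = 0.101). Between NUP98-NSD1 and NRASG12D it differed by 0.42 ± 0.13 (SE, adjusted p = 0.0286), which is 0.15 above the median of all tested genes, and the call was lost under both scalings, at 0.17 (adjusted p = 0.229) after median-ratio scaling and 0.11 (adjusted p = 0.354) after quantile normalization. It was also lost without NUP98-NSD1 replicate 1 or 2 or NRASG12D replicate 1 or 3, with log2 differences of 0.31 to 0.40 and adjusted p of 0.0821 to 0.0901.

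Rab38 (chr7:88430273-88491572, plus strand) had 71.2, 77.3 and 52.6 FPKM in the NRASG12D libraries, 122, 124 and 115 in the NUP98-NSD1 libraries and 30.9, 26.6 and 1.99 in the double-transduced libraries. It was highest in NUP98-NSD1 and lowest in NUP98-NSD1+NRASG12D, with no overlap of groups. The difference of 0.85 ± 0.14 (SE, adjusted p = 0.00349) between NUP98-NSD1 and NRASG12D passed the threshold, but not when all 9 libraries shared 1 fit (adjusted p = 0.409). Those of NUP98-NSD1+NRASG12D from NRASG12D, -2.28 ± 0.86 (SE, adjusted p = 0.0729), and from NUP98-NSD1, -3.13 ± 0.85 (SE, adjusted p = 0.0687), did not, although they did in the fit of all 9 libraries, with adjusted p of 0.0337 and 0.0229, and with array weights, with 0.00432 and 0.00481. The difference of NUP98-NSD1+NRASG12D from NRASG12D also passed after quantile normalization, at -2.57 (adjusted p = 0.0477). Double-transduced replicate 3 was far below the others of its group, at 1.99 FPKM. Without it the log2 differences were smaller, -1.18 and -2.03, and both passed, with adjusted p of 0.0114 and 0.0185. Without double-transduced replicate 1 the second was -3.74 and also passed, with adjusted p of 0.0398. The ratio of Rab38 to Rab32 was 1.60, 1.56 and 1.20 in the NRASG12D libraries, 1.71, 1.95 and 2.23 in the NUP98-NSD1 libraries and 0.309, 0.332 and 0.0160 in the double-transduced libraries. Replicate 3 was also the lowest of its group on the mast cell and basophil sums, whose part in this result was not tested. Rab38 overlaps Gm15661 on the opposite strand.

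Rab44 (chr17:29114145-29148980, plus strand), a large Rab with additional domains that has been tied to granule exocytosis in mast cells, had 133, 133 and 95.9 FPKM in the NRASG12D libraries, 107, 96.3 and 97.6 in the NUP98-NSD1 libraries and 64.1, 54.6 and 51.2 in the double-transduced libraries. It was 2.13-fold lower in NUP98-NSD1+NRASG12D than in NRASG12D, with a log2 difference of -1.07 ± 0.19 (SE, adjusted p = 0.00471), and 1.77-fold lower than in NUP98-NSD1, with a log2 difference of -0.82 ± 0.15 (SE, adjusted p = 0.0241). The second call was lost without NUP98-NSD1 replicate 1, 2 or 3 or double-transduced replicate 3, with log2 differences of -0.85 to -0.75 and adjusted p of 0.0767 to 0.111. The NUP98-NSD1 and NRASG12D libraries overlapped, with a log2 difference of -0.25 ± 0.14 (SE, adjusted p = 0.171), although without NRASG12D replicate 3 it was -0.40 with an adjusted p of 0.0179, and, at -0.52 relative to the median of all tested genes, it also passed under both scalings, at -0.50 (adjusted p = 0.0186) and -0.55 (adjusted p = 0.00985).

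The Rab3 genes, which act in the exocytosis of synaptic and other secretory vesicles, passed the threshold in none of the 3 comparisons. Rab3d, a Rab of secretory granules outside neurons, had 34.1, 29.002 and 29.5 FPKM in the NRASG12D libraries, 33.5, 31.1 and 32.9 in the NUP98-NSD1 libraries and 34.04, 32.7 and 51.4 in the double-transduced libraries, and these ranges overlapped in every comparison. Rab3a, the main Rab of synaptic vesicles, had 4.64, 5.62 and 4.56 FPKM in the NRASG12D libraries, 5.92, 6.08 and 5.78 in the NUP98-NSD1 libraries and 3.59, 4.18 and 4.56 in the double-transduced libraries. The NUP98-NSD1 libraries were the highest and the other groups met at 4.56, and its log2 differences were 0.23 (adjusted p = 0.124), -0.22 (0.33) and -0.44 (0.139) in the order of comparisons used above. Rab3b and Rab3c stayed at or below 0.510 FPKM in all 9 libraries and were not tested. Rab26, a paralog of Rab37 with 72.2% of aligned coding bases in common, reached 1 FPKM in NRASG12D replicate 3 alone, at 1.16, with 0.310, 0.510 and 0.167 in the double-transduced libraries.

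Among the 6 tested genes of late endosome, lysosome and phagosome, Rab7b changed most. Rab7b (chr1:131688695-131715439, plus strand), which directs traffic from late endosomes to the Golgi and is found in myeloid cells, had 0.0366, 0.411 and 0.0918 FPKM in the NRASG12D libraries, 9.44, 10.2 and 5.50 in the NUP98-NSD1 libraries and 21.7, 52.3 and 26.7 in the double-transduced libraries. A level of 3 fragments would be 0.0188 to 0.0296 FPKM in these libraries, so NRASG12D replicates 1 and 3 rest on few fragments, while replicate 2 was well above that level. Rab7b entered the test only through the libraries that carried NUP98-NSD1, where it was high. Its log2 differences from NRASG12D, 2.96 in NUP98-NSD1 and 4.78 in NUP98-NSD1+NRASG12D, are therefore given with no test. Rab7b still stands among the genes counted as higher in both comparisons with NRASG12D. In double-transduced cells it was 4.01-fold higher than in NUP98-NSD1, with a log2 difference of 1.82 ± 0.37 (SE, adjusted p = 0.0301), and was the single Rab gene called higher there. That call was lost without NUP98-NSD1 replicate 1, 2 or 3 or double-transduced replicate 3, with log2 differences of 1.58 to 1.97 and adjusted p of 0.0778 to 0.113.

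By comparison, Rab7, the general Rab of late endosomes and lysosomes, had 175, 169.6 and 158 FPKM in the NRASG12D libraries, 194, 186 and 176 in the NUP98-NSD1 libraries and 198, 256 and 275 in the double-transduced libraries. The 3 groups did not overlap but no difference passed, with log2 differences of 0.15, 0.52 and 0.38 and adjusted p of 0.159, 0.0531 and 0.27. The first was below the median of all tested genes. It turned sign under both scalings, at -0.10 after median-ratio scaling and -0.12 after quantile normalization. Without double-transduced replicate 1, the lowest of its group, the differences of the double-transduced group were 0.66 and 0.52 and passed, with adjusted p of 0.00684 and 0.0434. A share of 12.7% of its 50-base stretches occurred in other transcripts, among them Rab7-ps1.

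Rab9, of traffic from late endosomes to the Golgi, had 10.6, 14.4 and 9.91 FPKM in the NRASG12D libraries, 22.1, 21.9 and 15.5 in the NUP98-NSD1 libraries and 31.6, 22.6 and 19.04 in the double-transduced libraries, and rose above NRASG12D by log2 differences of 0.72 ± 0.18 (SE, adjusted p = 0.0149) in NUP98-NSD1 and 0.99 ± 0.23 (SE, adjusted p = 0.0159) in the double-transduced group. The first was lost without NUP98-NSD1 replicate 1 or 2 or NRASG12D replicate 3, with log2 differences of 0.62 to 0.64 and adjusted p of 0.0556 to 0.0585, and the second without NRASG12D replicate 1 or 3, with log2 differences of 0.90 to 0.94 and adjusted p of 0.0648 to 0.0702. The first, 0.45 above the median of all tested genes, did not pass after quantile normalization either, at 0.40 (adjusted p = 0.0625). Rab24, tied to autophagy, had 35.4, 48.7 and 41.4 FPKM in the NRASG12D libraries, 69.6, 70.98 and 65.3 in the NUP98-NSD1 libraries and 109, 83.4 and 77.8 in the double-transduced libraries, and its log2 differences from NRASG12D were 0.71 ± 0.12 (SE, adjusted p = 0.00361) in NUP98-NSD1 and 1.08 ± 0.19 (SE, adjusted p = 0.00514) in the double-transduced group. However, 49.6% of its 50-base stretches also lie in Prelid1 on the opposite strand, and no source used here says that strand was counted, so reads of the pair cannot be told apart. Rab36, of late endosomes and the Golgi, had 1.62, 1.90 and 2.06 FPKM in the NRASG12D libraries, 0.414, 0.302 and 0.424 in the NUP98-NSD1 libraries and 0.127, 0.321 and 0.138 in the double-transduced libraries and was the single gene to pass the filter through NRASG12D libraries alone. It had to be lower in the other groups, so its log2 differences from NRASG12D, -1.05 and -1.26, are given with no test, although it stands among the genes counted as lower in both comparisons. Rab20, a Rab of phagosomes, fell in NUP98-NSD1 compared with NRASG12D, with a log2 difference of -0.60 ± 0.09 (SE, adjusted p = 0.00214) and values of 18.3, 16.7 and 19.3 FPKM, while its double-transduced libraries spread over 11.6, 20.6 and 32.04 FPKM and overlapped the NRASG12D libraries at 27.1, 28.5 and 27.996, and 22.9% of its stretches are shared with E230013L22Rik on the opposite strand.

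Early and recycling endosomes were served by 12 tested genes, most of which did not pass. Rab31, a relative of Rab5 in traffic between Golgi and endosomes (chr17:65651729-65772752, minus strand), changed most. It had 10.9, 15.6 and 9.98 FPKM in the NRASG12D libraries, 44.5, 43.7 and 22.1 in the NUP98-NSD1 libraries and 91.4, 63.7 and 90.2 in the double-transduced libraries, in stepwise order with separate groups. The log2 differences from NRASG12D were 1.48 ± 0.29 (SE, adjusted p = 0.00568) in NUP98-NSD1 and 2.66 ± 0.22 (SE, adjusted p = 0.00026) in NUP98-NSD1+NRASG12D, or 3.02-fold and 6.73-fold in means, and the double-transduced cells exceeded NUP98-NSD1 by 1.18 ± 0.30 (SE, adjusted p = 0.0605). Both differences from NRASG12D passed under all 13 alternatives. The difference between NUP98-NSD1+NRASG12D and NUP98-NSD1 passed under 4 of 13 alternatives. Among these were quantile normalization, at 1.17 (adjusted p = 0.0409), and median-ratio scaling, at 1.26 (adjusted p = 0.0426). Rab21, which acts in the uptake of integrins, was higher in NUP98-NSD1+NRASG12D than in NRASG12D by 0.82 ± 0.19 (SE, adjusted p = 0.0137) at levels of 2.58 to 6.91 FPKM, and Rab5c, of early endosomes, by 0.55 ± 0.16 (SE, adjusted p = 0.0343). Both calls were lost when any single NRASG12D library was left out, with log2 differences of 0.80 to 0.84 and adjusted p of 0.0537 to 0.0603 for Rab21, and for Rab5c also without double-transduced replicate 3, with log2 differences of 0.47 to 0.57 and adjusted p of 0.0843 to 0.135 in these 4 fits. Relative to the median of all tested genes the difference of Rab5c was 0.32, and it did not pass under either scaling, while that of Rab21, 0.59 relative to the same median, did not pass after quantile normalization.

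The common markers of these compartments served as a reference. Rab5c had 111, 113 and 105 FPKM in the NRASG12D libraries, 125, 125 and 120.2 in the NUP98-NSD1 libraries and 135, 169 and 180.2 in the double-transduced libraries. Rab5a had 19.9, 36.8 and 32.9 FPKM in the NRASG12D libraries, 34.7, 39.1 and 38.7 in the NUP98-NSD1 libraries and 35.2, 29.2 and 27.3 in the double-transduced libraries, and its groups overlapped. Rab5b had 37.4, 41.7 and 36.96 FPKM in the NRASG12D libraries, 39.5, 36.3 and 31.96 in the NUP98-NSD1 libraries and 36.6, 50.1 and 46.1 in the double-transduced libraries, and its groups overlapped as well. For Rab11a, the Rab of recycling endosomes, the values were 158, 166 and 139 FPKM in NRASG12D, 158, 171 and 177 in NUP98-NSD1 and 139, 210.3 and 264 in NUP98-NSD1+NRASG12D, the last spreading most. For Rab11b they were 118, 121 and 117 FPKM in NRASG12D, 127, 121 and 114 in NUP98-NSD1 and 113, 96.01 and 103 in NUP98-NSD1+NRASG12D, and 13.6% of its stretches are shared, with Rab11b-ps2 among others. None of Rab5a, Rab5b, Rab11a and Rab11b passed the threshold in any comparison.

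Of the 10 tested genes of endoplasmic reticulum and Golgi, Rab19 had the largest differences. Rab19 (chr6:39381175-39390380, plus strand), a little-studied Rab of the Golgi, had 78.8, 76.3 and 72.5 FPKM in the NRASG12D libraries, 45.1, 40.5 and 45.1 in the NUP98-NSD1 libraries and 1.09, 10.5 and 3.95 in the double-transduced libraries. It fell in both comparisons with NRASG12D, with log2 differences of -0.79 ± 0.08 (SE, adjusted p = 0.000825) in NUP98-NSD1 and -3.97 ± 0.55 (SE, adjusted p = 0.00188) in NUP98-NSD1+NRASG12D, and the log2 difference was -3.18 ± 0.56 (SE, adjusted p = 0.0208) in NUP98-NSD1+NRASG12D compared with NUP98-NSD1. In the fit of all 9 libraries the first had an adjusted p of 0.239. The last call was lost without NUP98-NSD1 replicate 1, 2 or 3 or double-transduced replicate 3, with log2 differences of -3.23 to -3.15 and adjusted p of 0.0681 to 0.0883. Rab27b, Rab37 and Rab19 together made up 17.4% to 18.5% of the summed Rab FPKM in the NRASG12D libraries, 8.63% to 10.6% in the NUP98-NSD1 libraries and 0.434% to 1.84% in the double-transduced libraries. As for Rab27b and Rab37, double-transduced replicate 2 was the highest of its group for Rab19, and it also held the largest mast cell sum, whose part in the result was not tested.

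Rab6a, which moves vesicles to and from the Golgi, had 31.8, 34.4 and 32.6 FPKM in the NRASG12D libraries, 48.3, 49.5 and 36.9 in the NUP98-NSD1 libraries and 68.1, 65.7 and 111 in the double-transduced libraries and was 2.48-fold higher in NUP98-NSD1+NRASG12D than in NRASG12D, with a log2 difference of 1.24 ± 0.22 (SE, adjusted p = 0.00524). Between NUP98-NSD1 and NRASG12D it differed by 0.42 ± 0.12 (SE, adjusted p = 0.0244), which is 0.15 above the median of all tested genes, and that call was lost under both scalings, at 0.18 (adjusted p = 0.192) after median-ratio scaling and 0.12 (adjusted p = 0.284) after quantile normalization. It was also lost without NUP98-NSD1 replicate 1 or 2 or NRASG12D replicate 1 or 3, with log2 differences of 0.35 to 0.42 and adjusted p of 0.0682 to 0.0889. A share of 19.0% of its stretches lies in other transcripts, mainly Mrpl48 on the opposite strand. Rab2a, of traffic out of the endoplasmic reticulum, rose in NUP98-NSD1 compared with NRASG12D, from 12.1, 15.1 and 16.1 to 20.8, 25.6 and 22.5 FPKM, with a log2 difference of 0.64 ± 0.13 (SE, adjusted p = 0.00675), while the double-transduced libraries, at 27.6, 16.4 and 15.99, overlapped both. This is 0.37 above the median of all tested genes, and it did not pass after quantile normalization, at 0.32 (adjusted p = 0.0879). Rab2b had 7.80, 8.10 and 9.40 FPKM in the NRASG12D libraries, 4.79, 4.84 and 7.72 in the NUP98-NSD1 libraries and 2.41, 5.08 and 2.88 in the double-transduced libraries. It fell in NUP98-NSD1+NRASG12D compared with NRASG12D, with a log2 difference of -1.12 ± 0.25 (SE, adjusted p = 0.012), a call lost without NRASG12D replicate 3 (-1.05, adjusted p = 0.0564), but 57.0% of its stretches are shared with Tox4 and Gm43766 on the opposite strand, so its value is uncertain. Rab33b, of the Golgi and of autophagy, fell in both comparisons with NRASG12D, with log2 differences of -0.33 (adjusted p = 0.0269) and -0.64 (adjusted p = 0.0126), levels of 5.34 to 9.23 FPKM and 21.2% of stretches shared. Its first call was lost without NUP98-NSD1 replicate 2 or any single NRASG12D library, with log2 differences of -0.35 to -0.31 and adjusted p of 0.0589 to 0.0782, and its second without any single NRASG12D library, with log2 differences of -0.66 to -0.62 and adjusted p of 0.0593 to 0.0687.

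**Figure D3:**
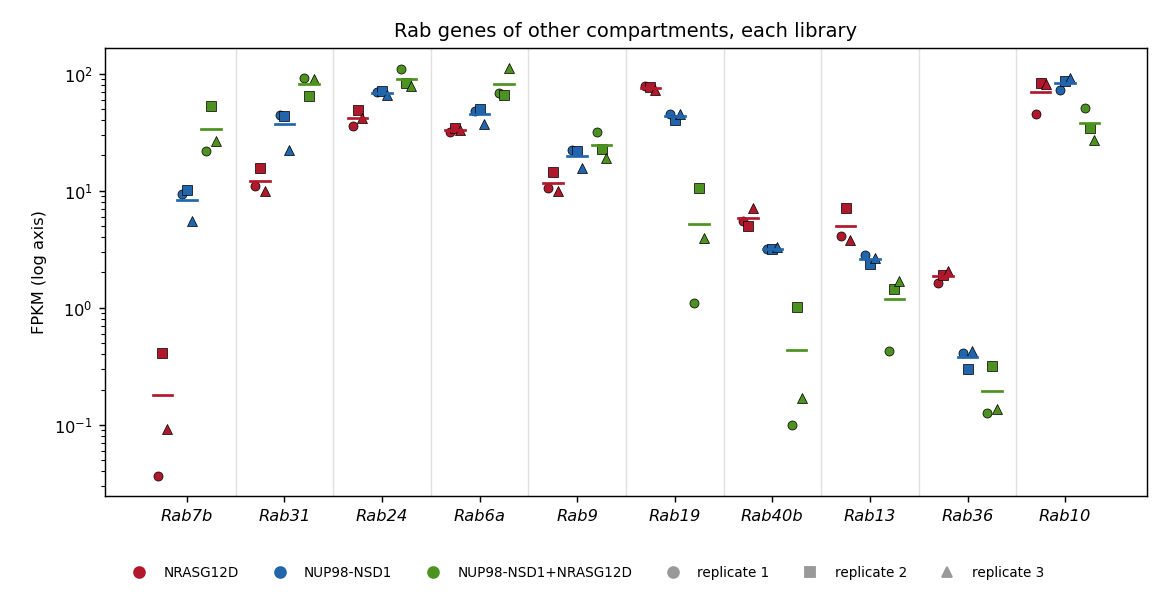
FPKM (log axis) of 10 Rab genes of other compartments in each of the 9 libraries; colours mark the groups, symbols the replicates and bars the group means. Rab7b and Rab31 climb from NRASG12D to NUP98-NSD1 to the double-transduced group without overlap, while Rab19, Rab40b and Rab13 descend in the same order.

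Genes of traffic from Golgi to plasma membrane split. Rab13, which serves exocytosis toward cell junctions, had 4.09, 7.17 and 3.82 FPKM in the NRASG12D libraries, 2.83, 2.36 and 2.66 in the NUP98-NSD1 libraries and 0.424, 1.43 and 1.70 in the double-transduced libraries. It fell in both comparisons with NRASG12D, with log2 differences of -1.47 ± 0.32 (SE, adjusted p = 0.0116) in NUP98-NSD1+NRASG12D and -0.70 ± 0.21 (SE, adjusted p = 0.0277) in NUP98-NSD1. The second call was lost without NUP98-NSD1 replicate 1, 2 or 3, with log2 differences of -0.74 to -0.65 and adjusted p of 0.0536 to 0.0892. Rab8a and Rab8b, whose coding sequences share 78.0% of aligned bases and which act in exocytosis and cilium formation, differed from each other in direction. Rab8a, at 73.01 to 122 FPKM, was higher than in NRASG12D in both other groups, by 0.32 (adjusted p = 0.015) in NUP98-NSD1 and 0.62 (adjusted p = 0.0124) in NUP98-NSD1+NRASG12D. The first, 0.05 above the median of all tested genes, was lost under both scalings, at 0.069 (adjusted p = 0.424) after median-ratio scaling and 0.017 (adjusted p = 0.842) after quantile normalization, and without NUP98-NSD1 replicate 1 or 2 or NRASG12D replicate 2, where it had log2 differences of 0.28 to 0.30 and adjusted p of 0.0526 to 0.0613. The second, 0.39 above that median, was lost after quantile normalization, at 0.26 (adjusted p = 0.114), and without any single NRASG12D library, where it had log2 differences of 0.60 to 0.64 and adjusted p of 0.0596 to 0.0668. Rab8b had 101, 97.1 and 89.5 FPKM in the NRASG12D libraries, 64.3, 64.7 and 77.7 in the NUP98-NSD1 libraries and 40.3, 81.4 and 56.1 in the double-transduced libraries and fell in NUP98-NSD1 compared with NRASG12D, with a log2 difference of -0.47 ± 0.10 (SE, adjusted p = 0.00779). Rab10, of exocytosis and glucose transporter traffic, had 45.1, 83.4 and 80.98 FPKM in the NRASG12D libraries, 71.9, 85.99 and 91.9 in the NUP98-NSD1 libraries and 51.2, 34.2 and 27.2 in the double-transduced libraries and was 2.22-fold lower in NUP98-NSD1+NRASG12D than in NUP98-NSD1, with a log2 difference of -1.17 ± 0.25 (SE, adjusted p = 0.0355). That call passed in 6 of 13 alternatives and, of the fits that left out 1 library, in the one without double-transduced replicate 1. The other 5 gave log2 differences of -1.27 to -0.97 and adjusted p of 0.0775 to 0.14.

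Rab40b (chr11:121356125-121388251, minus strand), a Rab with a domain that joins it to a ubiquitin ligase, had 5.55, 4.97 and 7.15 FPKM in the NRASG12D libraries, 3.15, 3.15 and 3.28 in the NUP98-NSD1 libraries and 0.0990, 1.02 and 0.171 in the double-transduced libraries. It fell in all 3 comparisons, with log2 differences of -0.70 ± 0.14 (SE, adjusted p = 0.00596) in NUP98-NSD1 and -2.31 ± 0.28 (SE, adjusted p = 0.00103) in NUP98-NSD1+NRASG12D compared with NRASG12D, and -1.61 ± 0.26 (SE, adjusted p = 0.0155) in the double-transduced group compared with NUP98-NSD1. The last call was lost without NUP98-NSD1 replicate 1, 2 or 3 or double-transduced replicate 3, with log2 differences of -1.62 to -1.49 and adjusted p of 0.0556 to 0.0719. Its relative Rab40c, with 2.22 to 4.54 FPKM, differed by 0.34 ± 0.11 (SE, adjusted p = 0.0351) between NUP98-NSD1 and NRASG12D, 0.07 above the median of all tested genes. The call passed in 3 of 13 alternatives, the sign turned after quantile normalization, and the call was lost without NUP98-NSD1 replicate 1 or 2 or any single NRASG12D library, with log2 differences of 0.29 to 0.38 and adjusted p of 0.0576 to 0.114.

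**Figure D4:**
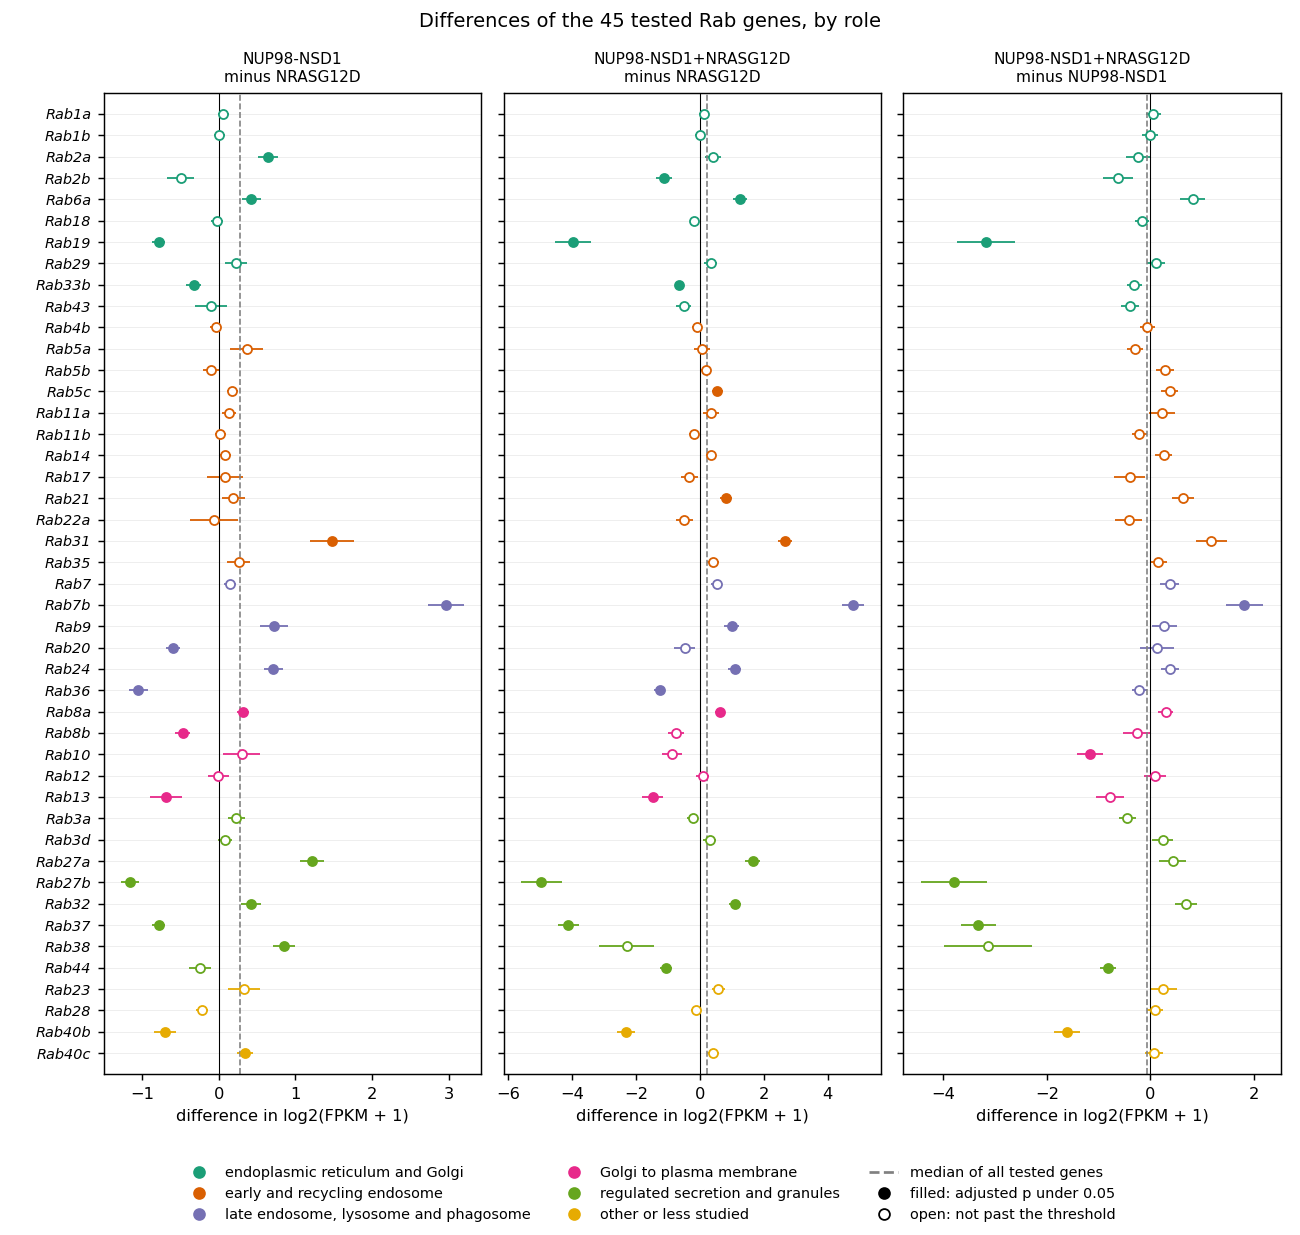
Difference in log2(FPKM + 1) of each of the 45 tested Rab genes for the 3 comparisons, with bars of 1 SE, coloured by role, filled where the adjusted p was under 0.05; each panel has its own horizontal scale, and the dashed line is the median of all 13493 tested genes. Rab27b and Rab37 have the lowest values in both panels with NUP98-NSD1+NRASG12D, while most genes of early and recycling endosomes lie near the dashed line.

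By role, the 8 tested genes of regulated secretion gave 3 higher and 2 lower calls in NUP98-NSD1 compared with NRASG12D, 2 higher and 3 lower in NUP98-NSD1+NRASG12D compared with NRASG12D, and 0 higher and 3 lower in NUP98-NSD1+NRASG12D compared with NUP98-NSD1. The 9 granule-linked genes are this role without Rab26 and Rab37, and 7 of them were tested. They gave 3 higher and 1 lower, 2 higher and 2 lower, and 0 higher and 2 lower in the same order. Early and recycling endosomes gave 1 higher, 3 higher and 0 calls among 12, with none lower. Late endosome, lysosome and phagosome gave 3 higher and 2 lower, 3 higher and 1 lower, and 1 higher among 6. Endoplasmic reticulum and Golgi gave 2 higher and 2 lower, 1 higher and 3 lower, and 1 lower among 10. Golgi to plasma membrane gave 1 higher and 2 lower, 1 higher and 1 lower, and 1 lower among 5, and the other or less studied genes 1 higher and 1 lower, 1 lower, and 1 lower among 4. Among all tested genes, 42.2% were higher and 9.98% lower in the first of these comparisons, 24.2% and 14.1% in the second and 2.30% and 6.31% in the last. The counts by role were not tested against these shares. On FPKM as deposited, in 8 of the 45 genes (Rab5c, Rab6a, Rab7, Rab7b, Rab8a, Rab24, Rab31 and Rab32) every NRASG12D library lay below every NUP98-NSD1 library and these below every double-transduced library, against 8.38% of all tested genes. The opposite order held in 6 (Rab13, Rab19, Rab27b, Rab33b, Rab37 and Rab40b), against 6.84%.

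A total of 20 tested Rab genes passed the threshold in no comparison, with log2 differences between -0.50 and 0.58. They were Rab1a, Rab1b, Rab3a, Rab3d, Rab4b, Rab5a, Rab5b, Rab7, Rab11a, Rab11b, Rab12, Rab14, Rab17, Rab18, Rab22a, Rab23, Rab28, Rab29, Rab35 and Rab43. Rab1a, which with Rab1b moves vesicles from the endoplasmic reticulum to the Golgi, ranged over 139 to 168 FPKM across the 9 libraries, Rab1b over 183 to 226 and Rab18, of lipid droplets and the endoplasmic reticulum, over 83.3 to 99.5. Rab14, of the Golgi and early endosomes, ranged over 159 to 221 FPKM. Rab4b (79.7 to 96.2 FPKM) shares 58.1% of its stretches with Gm21983, and Rab43 (2.57 to 5.51 FPKM) shares 74.5% with Gm45140, so these levels are uncertain. The 13 genes that did not reach the filter were Rab3b, Rab3c, Rab6b, Rab9b, Rab15, Rab25, Rab26, Rab30, Rab33a, Rab34, Rab39, Rab39b and Rab42.

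Promoter sequences from the RefSeq table (GRCm38.p6) were found for 48 of the 58 genes, 60 promoters in all. The 250 bases before each start were searched on both strands for 5 motifs of factors known in mast and myeloid cells. CACGTG, an E-box bound by MITF and its relatives, was in 5 Rab promoters or 8.33% (Rab5a, Rab20, Rab21, Rab23 and Rab27a), against 6.02% of all 32851 promoters. TCATGTG, the core of the M-box of MITF, was in 5.00% (Rab15, Rab28 and Rab34) against 3.25%, and AGATAA, of GATA factors, in 3.33% (Rab34 and Rab43) against 9.99%. GAGGAAGT, of the ETS type that PU.1 binds, was in 3.33% (Rab2b and Rab32) against 2.44%, and TTGCNNAA, of C/EBP factors, in 6.67% (Rab1b, Rab29, Rab40b and Rab43) against 9.56%. The motifs do not overlap in the promoters shown. Promoters of 3 genes with large and opposite changes follow, Rab27a and Rab31, which rose, and Rab40b, which fell, each as the 250 bases before the start, 5′ to 3′ on the gene's strand, with matched letters in capitals. The Rab27a promoters belong to 2 starts, the first at chr9:73044560-73044809 before the annotated gene and the second at chr9:73063898-73064147 within it, outside annotated exons, with the E-box 246 to 241 bases before the start. Those of Rab31 (chr17:65772753-65773002, minus strand) and Rab40b (chr11:121388252-121388501, minus strand) lie outside annotated genes. Rab31 holds none of the 5 motifs in this window, and Rab40b holds the C/EBP letters on the opposite strand, 151 to 144 bases before its start. These matches are descriptions of letters, not of binding.
Rab27a, start 1: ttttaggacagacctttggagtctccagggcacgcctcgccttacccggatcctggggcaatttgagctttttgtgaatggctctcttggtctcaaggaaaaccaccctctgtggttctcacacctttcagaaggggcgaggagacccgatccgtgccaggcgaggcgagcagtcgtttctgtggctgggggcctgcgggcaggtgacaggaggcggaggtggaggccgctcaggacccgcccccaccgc
Rab27a, start 2: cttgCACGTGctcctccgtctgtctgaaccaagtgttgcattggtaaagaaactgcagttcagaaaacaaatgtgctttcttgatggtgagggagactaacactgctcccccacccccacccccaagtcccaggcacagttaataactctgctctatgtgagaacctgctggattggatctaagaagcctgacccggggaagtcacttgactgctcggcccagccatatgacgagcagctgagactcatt
Rab31: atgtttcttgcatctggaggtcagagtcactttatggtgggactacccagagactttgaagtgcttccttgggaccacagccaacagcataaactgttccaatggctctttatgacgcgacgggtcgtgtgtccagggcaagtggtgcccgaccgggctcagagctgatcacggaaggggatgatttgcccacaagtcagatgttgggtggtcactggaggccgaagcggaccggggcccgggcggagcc
Rab40b: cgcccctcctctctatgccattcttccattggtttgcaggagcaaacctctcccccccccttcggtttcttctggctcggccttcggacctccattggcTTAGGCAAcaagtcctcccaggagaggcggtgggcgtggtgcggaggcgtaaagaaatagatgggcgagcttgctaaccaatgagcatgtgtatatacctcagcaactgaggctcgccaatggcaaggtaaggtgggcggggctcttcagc

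**Figure D5:**
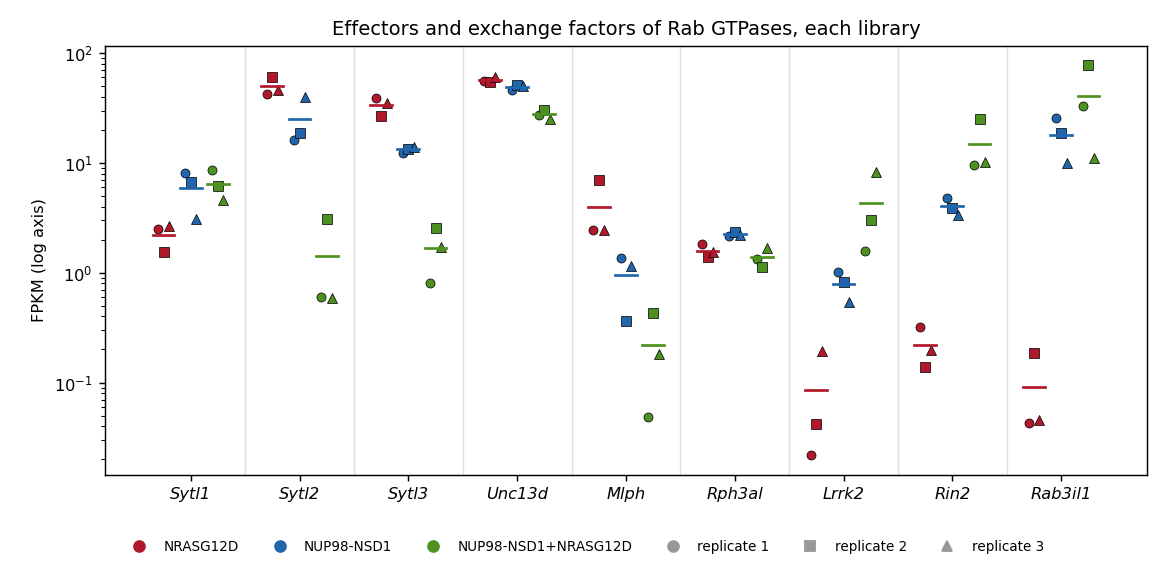
FPKM (log axis) of 9 effectors and exchange factors of Rab proteins in each of the 9 libraries; colours mark the groups, symbols the replicates and bars the group means. Sytl2 and Sytl3 descend from NRASG12D to the double-transduced group without overlap, as Rab27b does, while Rin2 climbs in the same order and Rab3il1 is above 10 in every library that carries NUP98-NSD1 and below 0.2 in NRASG12D.

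The machinery around the Rab proteins was described with a list of 121 regulators and effectors, of which 100 were tested. In NUP98-NSD1 compared with NRASG12D, 26 were higher and 19 lower, in NUP98-NSD1+NRASG12D compared with NRASG12D 19 were higher and 22 lower, and in NUP98-NSD1+NRASG12D compared with NUP98-NSD1 3 were higher and 7 lower. Of all tested genes, 42.2% were higher and 9.98% lower in the first of these, 24.2% and 14.1% in the second, and 2.30% and 6.31% in the last. The median log2 differences were -0.0023, -0.04 and -0.10, against 0.27, 0.23 and -0.06 for all tested genes.

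Of 10 listed effectors of Rab27, 6 were tested, and 1 was higher and 3 lower, 1 higher and 4 lower, and 0 higher and 3 lower in the 3 comparisons. The shares of all tested genes were 42.2% higher and 9.98% lower, 24.2% and 14.1%, and 2.30% and 6.31%. Sytl2, a synaptotagmin-like protein that tethers Rab27-bearing granules to the plasma membrane, had 42.1, 60.96 and 46.5 FPKM in the NRASG12D libraries, 16.2, 18.7 and 40.1 in the NUP98-NSD1 libraries and 0.598, 3.09 and 0.586 in the double-transduced libraries, with log2 differences of -1.06 ± 0.32 (SE, adjusted p = 0.0285), -4.53 ± 0.39 (SE, adjusted p = 0.000276) and -3.46 ± 0.48 (SE, adjusted p = 0.0107). Sytl3, of the same family, had 38.7, 26.8 and 35.5 FPKM in the NRASG12D libraries, 12.4, 13.5 and 13.96 in the NUP98-NSD1 libraries and 0.808, 2.54 and 1.73 in the double-transduced libraries, with log2 differences of -1.26 ± 0.14 (SE, adjusted p = 0.00104), -3.72 ± 0.28 (SE, adjusted p = 0.000181) and -2.46 ± 0.26 (SE, adjusted p = 0.0067). Double-transduced replicate 2 was the highest of its group for both, as for Rab27b. The first call of Sytl2 was lost without NUP98-NSD1 replicate 1 or 2 or NRASG12D replicate 2 or 3, with log2 differences of -1.10 to -0.82 and adjusted p of 0.0712 to 0.0963, while the calls of Sytl3 passed under all 13 alternatives in each comparison.

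Unc13d, which encodes Munc13-4 and primes granules for fusion, had 55.8, 54.2 and 60.3 FPKM in the NRASG12D libraries, 46.1, 50.7 and 49.8 in the NUP98-NSD1 libraries and 27.4, 30.3 and 25.05 in the double-transduced libraries. It was lower in NUP98-NSD1+NRASG12D than in both other groups, with log2 differences of -1.02 ± 0.14 (SE, adjusted p = 0.00181) from NRASG12D and -0.81 ± 0.14 (SE, adjusted p = 0.0213) from NUP98-NSD1. The second call was lost without NUP98-NSD1 replicate 1, 2 or 3 or double-transduced replicate 3, with log2 differences of -0.85 to -0.74 and adjusted p of 0.0654 to 0.119. The difference of -0.21 ± 0.08 (SE, adjusted p = 0.0631) between NUP98-NSD1 and NRASG12D did not pass as deposited, but at -0.48 relative to the median of all tested genes it did under both scalings, at -0.46 and -0.52 (adjusted p of 0.0062 and 0.00537). Mlph, which links Rab27a to myosin Va on melanosomes, fell from 2.44, 7.01 and 2.46 FPKM in NRASG12D to 1.36, 0.366 and 1.15 in NUP98-NSD1 and 0.0484, 0.430 and 0.183 in NUP98-NSD1+NRASG12D. Without the NRASG12D libraries, where it was high, Mlph would not have passed the filter. Its log2 differences from NRASG12D, -1.26 and -1.92, are therefore given with no test, although Mlph stands among the effectors counted as lower. Without NUP98-NSD1 replicate 2 the first was -1.02. Sytl1 alone rose, from 2.51, 1.53 and 2.64 FPKM in NRASG12D to 8.04, 6.75 and 3.09 in NUP98-NSD1 and 8.64, 6.22 and 4.58 in NUP98-NSD1+NRASG12D, with log2 differences of 1.05 ± 0.31 (SE, adjusted p = 0.025) and 1.20 ± 0.26 (SE, adjusted p = 0.0116). The first, 0.78 above the median of all tested genes, was lost under both scalings, at 0.85 (adjusted p = 0.0529) after median-ratio scaling and 0.70 (adjusted p = 0.0946) after quantile normalization, and without NUP98-NSD1 replicate 1 or 2 or NRASG12D replicate 2 or 3, where it had log2 differences of 0.82 to 1.15 and adjusted p of 0.0527 to 0.0859. Rph3al, at 1.12 to 2.34 FPKM, passed in no comparison, and Sytl4, Sytl5, Myrip and Exph5 stayed below 0.25 FPKM in all 9 libraries.

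Of the 5 genes of the Rab32 and Rab38 machinery, 1 passed the threshold. Lrrk2, a kinase that binds Rab32 and Rab38 and phosphorylates Rab8 and Rab10, had 0.0218, 0.0419 and 0.192 FPKM in the NRASG12D libraries, 1.01, 0.819 and 0.537 in the NUP98-NSD1 libraries and 1.57, 3.04 and 8.31 in the double-transduced libraries. The groups stood in stepwise order without overlap. Lrrk2 passed the filter through the groups where it was high, so its log2 differences from NRASG12D, 0.72 and 2.08, are given with no test. The first was 0.44 above the median of all tested genes, and after quantile normalization it was 0.0028. Hps1 (20.8 to 28.7 FPKM) and Hps4 (8.34 to 12.5 FPKM), which together switch on Rab32 and Rab38, did not pass in any comparison, nor did Ankrd27 (24.4 to 43.4 FPKM) or Lrrk1 (2.49 to 6.17 FPKM). The 4 listed effectors of Rab3 (Rims1, Rims2, Rims3 and Rph3a) stayed at or below 0.522 FPKM and were not tested.

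Among exchange factors, 30 of 34 were tested, and 8 were higher and 5 lower, 7 higher and 4 lower, and 2 higher and 2 lower in the 3 comparisons. The shares of all tested genes were 42.2% higher and 9.98% lower, 24.2% and 14.1%, and 2.30% and 6.31%. Rab3il1, an exchange factor for Rab8, had 0.0429, 0.186 and 0.0459 FPKM in the NRASG12D libraries, 25.4, 18.8 and 10.1 in the NUP98-NSD1 libraries and 33.2, 77.5 and 10.99 in the double-transduced libraries. These were the largest rises of the list in both comparisons with NRASG12D, 4.04 and 4.87 on the log2 scale. Rin2, an exchange factor for Rab5, had 0.318, 0.140 and 0.200 FPKM in the NRASG12D libraries, 4.81, 3.87 and 3.38 in the NUP98-NSD1 libraries and 9.48, 25.3 and 10.1 in the double-transduced libraries. Its log2 differences from NRASG12D were 2.03 and 3.58. Both genes passed the filter only through the groups where they were high, so their differences from NRASG12D are given with no test. Between NUP98-NSD1+NRASG12D and NUP98-NSD1, Rin2 differed by 1.54 ± 0.37 (SE, adjusted p = 0.0493). That call was lost after median-ratio scaling, at 1.61 (adjusted p = 0.0599). It was also lost without NUP98-NSD1 replicate 1, 2 or 3 or double-transduced replicate 3, with log2 differences of 1.45 to 1.74 and adjusted p of 0.0852 to 0.173. Dennd2c, of the DENN family, had 0.560, 0.417 and 0.257 FPKM in NUP98-NSD1 and 1.24, 1.20 and 1.56 in NUP98-NSD1+NRASG12D. It passed the filter through the double-transduced libraries alone, so it had to be higher there. Its log2 difference from NUP98-NSD1, 0.73, is given with no test, although Dennd2c stands among the genes counted as higher.

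The 29 tested GTPase-activating proteins gave 5 higher and 5 lower, 3 higher and 6 lower, and 0 higher and 1 lower, the last being Tbc1d9b at -1.04 ± 0.20 (SE, adjusted p = 0.0273), a call lost without NUP98-NSD1 replicate 1, 2 or 3 or double-transduced replicate 3, with log2 differences of -1.08 to -0.86 and adjusted p of 0.0579 to 0.118. Effectors of Rab11 included Rab11fip5, with 0.365, 0.690 and 0.441 FPKM in the NRASG12D libraries, 7.57, 4.46 and 5.38 in the NUP98-NSD1 libraries and 14.5, 25.1 and 10.4 in the double-transduced libraries. Its rises over NRASG12D were 2.16 and 3.48 on the log2 scale. Rab11fip5, Rab3il1, Rin2 and Lrrk2 stayed below 1 FPKM in NRASG12D and entered the test through the groups where they were high. Their rises over NRASG12D are therefore given with no test, although they stand among the genes counted as higher. Dennd2c likewise entered through the double-transduced group alone. Erc1, an effector of Rab6 at the cell cortex, was higher in NUP98-NSD1+NRASG12D than in NUP98-NSD1 by 0.96 ± 0.19 (SE, adjusted p = 0.0312), a call lost without NUP98-NSD1 replicate 1, 2 or 3 or double-transduced replicate 2 or 3, with log2 differences of 0.84 to 1.03 and adjusted p of 0.0588 to 0.128. Effectors of Rab5 gave 0 higher and 3 lower of 8 in each comparison with NRASG12D, which were Rabep1, Rabep2 and Appl1 in both, and no call in the comparison of the double-transduced group with NUP98-NSD1. Effectors of Rab7 gave 4 higher and 1 lower, 2 higher and 0 lower, and 0 higher and 1 lower of 6. The 7 tested genes of prenylation and membrane delivery gave 2 higher and 1 lower, 1 higher and 2 lower, and 0 calls. Beside these counts, the shares of all tested genes were 42.2% higher and 9.98% lower, 24.2% and 14.1%, and 2.30% and 6.31%. The counts by role were not tested against these shares.

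Neutrophil and monocyte markers differed between the same groups. All 10 neutrophil and promyelocyte genes and all 8 monocyte and macrophage genes were higher in NUP98-NSD1 and in NUP98-NSD1+NRASG12D than in NRASG12D, and 3 and 2 of them were higher in NUP98-NSD1+NRASG12D than in NUP98-NSD1. Of all tested genes, 42.2%, 24.2% and 2.30% were higher in these comparisons. Several of the marker genes, Camp and Ltf among them, passed the filter only through the groups with NUP98-NSD1. Within the double-transduced group, replicate 3 had the largest sums of both lists and the largest Lrrk2, Rab6a and Rab32 values, whereas replicate 2 had the largest Rab7b, Rin2 and Rab3il1 values. Rab38, which was higher in NUP98-NSD1 than in NRASG12D, was lowest in the double-transduced group, where both sums were highest. The part of these markers in the results was not tested.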

How the data were processed

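RNA of 9 cultures was sequenced by the authors as paired-end 50 bp reads, aligned with STAR 2.7.2a to GRCm38.p6 with the GENCODE M22 annotation and summarised with Cufflinks 2.2.1. The values deposited by the authors are gene FPKM in a table per library, with no further scaling stated, and DESeq2 calls that the authors made from counts were not used here. Groups were taken from the sample labels. Coordinates are on GRCm38, counted from 1, and those of all 58 Rab genes were equal in the GENCODE M21 annotation used here.

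Genes that reached an FPKM of 1 in 3 or more of 9 libraries were compared as log2(FPKM + 1) in limma 3.58.1 (R 4.3.3; lmFit, eBayes with trend), each pair of groups on its own 6 libraries, without a block, and p-values were adjusted after Benjamini and Hochberg over every gene tested. The test was checked on simulated normal values with few changed genes and the same spread in both groups. That check does not cover groups of unequal spread or comparisons in which many genes changed, as here. Alternatives were a pseudocount of 0.1, no filter, median-ratio and quantile scaling, a fit of all 9 libraries, array weights, the replicate number as a block and each library left out in turn. Depth was estimated from steps between low FPKM values; floors of 3 fragments cover counting error only. Shared sequence is the percent of a gene's 50-base stretches found in transcripts of other genes. Members, roles and gene lists were chosen with earlier results of these data known. Values in every library are given for granule-linked Rab genes, for the 6 largest rises and falls per comparison and for reference endosomal Rab genes. Regulators are named by the 3 largest rises and falls per comparison, of which 1 is not reported here. Tables were handled with Python 3.11.15, pandas 2.3.3 and numpy 2.4.6, and plots drawn with matplotlib 3.10.9.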

Additional observations from a re-analysis of the deposited data

How the results depend on the processing

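Across 86 differences of single genes and 1118 values under alternatives, 917 kept their direction and their side of the threshold, 166 lost the call, 29 gained it and 6 turned sign. Those 6 concerned small differences between NUP98-NSD1 and NRASG12D, of which that of Rab40c had been called. After quantile normalization Rab3a was -0.10, Rab3d -0.23, Rab7 -0.12 and Rab40c -0.0053, and after median-ratio scaling Rab3d was -0.17 and Rab7 -0.10. The number of Rab genes called between NUP98-NSD1 and NRASG12D was 20, and 6 when all 9 libraries shared 1 estimate of spread (5 higher, 1 lower). Between NUP98-NSD1+NRASG12D and NUP98-NSD1 it was 7, and 1 without a filter, 12 with all 9 libraries in 1 fit and 14 with array weights. The cause was not tested. With 1 library left out, the counts ran from 13 to 22 for NUP98-NSD1 against NRASG12D (13 without NUP98-NSD1 replicate 2), from 13 to 24 for NUP98-NSD1+NRASG12D against NRASG12D, and from 1 to 10 for NUP98-NSD1+NRASG12D against NUP98-NSD1 (1 without any single NUP98-NSD1 library, 3 without double-transduced replicate 3). Deviations of same-numbered libraries from their group means had correlations between -0.18 and 0.16. These cannot exclude a shared mouse or day, and no source used here says whether the numbers mark one. With the replicate number as a block, 20, 19 and 6 Rab genes were called in the 3 comparisons. Differences in Rab7b and other genes near the floor are limited by depth in NRASG12D.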

Other observations

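Values are given for 4 Rab genes below the filter. Rab15, of recycling endosomes, had 0.517, 5.05 and 0.418 FPKM in the double-transduced libraries and at most 0.211 in the other 6. Rab34, which serves lysosome positioning and cilia, had 0.645, 0.994 and 2.39 FPKM in the double-transduced libraries and at most 0.613 elsewhere. Rab39, of late endosomes, was listed at 0.384, 0.264 and 0.133 in the double-transduced libraries, at 0.161, 0.0641 and 0.127 in NUP98-NSD1 and at 0, 0.0191 and 0.0151 in NRASG12D. Rab6b, the paralog of Rab6a known mainly from neurons, ranged over 0.342 to 1.36 FPKM. None of these was tested.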
